A study of Mus musculus with 8 samples.

Results

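The comparison set 3 cultures of mouse bone marrow cells that received RANKL against 1 culture that received M-CSF without it, on day 3 of treatment. It used 4 of the 8 arrays of the study, the other 4 being arrays of the same treatments on day 6, and the arrays were chosen by treatment and day alone. The M-CSF+RANKL culture received 50 ng/ml of M-CSF together with 100 ng/ml of RANKL. The PSS1-WT and PSS1-LMS cultures received both factors and, a day after treatment, a retroviral vector for wild-type PSS1 or for the form the labels call LMS. The M-CSF culture is named in the labels for M-CSF only. All cells came from strain C57BL6/J and were treated a day after seeding in α-MEM with 10% FBS. The labels give 1 treatment text for every sample, so the absence of RANKL from the M-CSF culture rests on its title, and they do not say whether the cultures without an insert received an empty vector. PSS1, the product of Ptdss1, makes phosphatidylserine. The labels give neither the species of the insert nor the change that PSS1-LMS carries.

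M-CSF, through its receptor Csf1r, keeps macrophage precursors alive and dividing. RANKL, through its receptor RANK, turns such precursors into osteoclasts, the large cells with many nuclei that dissolve bone. Signals from RANK reach NF-κB and AP-1 factors, these switch on Nfatc1, and Nfatc1 switches on the genes for cell fusion, acid secretion and matrix breakdown. Bone marrow cultures of this kind are the usual way to make osteoclasts in a dish.

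Each array measured total RNA with labelled cDNA made from 500 ng, and each value is the authors' log2 signal, so a difference of 1 is 2-fold. No culture had a replicate array. The 3 RANKL arrays differ in vector, so they are given as 3 values or as a range, without a standard deviation, and every difference rests on the same single M-CSF array. Signals of the RANKL arrays are listed in the order M-CSF+RANKL, PSS1-WT, PSS1-LMS. The brightest of 23 background probe sets stood at 6.01, 5.97 and 5.86 in the RANKL arrays and at 6.29 in the M-CSF array. A gene counted as measured when it exceeded that limit in at least 1 of the 4 arrays, which held for 8411 of 19505 genes. Above their own limits were 7721, 7741 and 7959 genes in the RANKL arrays and 7239 in the M-CSF array. The scale ended at log2 of 1000000, so genes near that value are compressed. In bulk RNA, fewer cells of a type and less RNA per cell cannot be told apart.

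The labelled treatments were set against marker genes first. All 5 osteoclast markers were above background in each RANKL array, against 1, Nfatc1, in the M-CSF array. Acp5, the acid phosphatase whose activity is stained to count osteoclasts, had signals of 19.91, 19.84 and 19.86 in the RANKL arrays, against 5.14 in the M-CSF array. Ctsk, the protease that cuts bone collagen, had 19.81, 19.64 and 19.63 in the RANKL arrays, against 4.46 in the M-CSF array. Both were at the top of the scale in every RANKL array and within background in the M-CSF array, so their folds are lower bounds. With the M-CSF signal raised to its limit, Acp5 was at least 12191-fold and Ctsk at least 10802-fold higher. Ptdss1 had 9.56 in the M-CSF+RANKL array, 18.91 and 18.79 in the PSS1-WT and PSS1-LMS arrays and 10.31 in the M-CSF array. The arrays named for the insert were the ones with a high signal for its gene, and the array values do not separate the insert from the cells' own transcript.

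Markers of other marrow cells were at background in part. No defining marker of B cells (0 of 4), T and NK cells (0 of 5), erythroid cells (0 of 2), stroma and osteoblasts (0 of 6) or endothelium (0 of 4) exceeded background in any of the 4 arrays. Longer lists of genes for these 5 classes held 1 measured gene each. Blnk, an adaptor of B cells and macrophages, had 8.98, 9.46 and 9.69 in the RANKL arrays and 11.002 in the M-CSF array. Acta2, smooth muscle actin, had 6.74, 7.94 and 6.98 in the RANKL arrays and 8.23 in the M-CSF array. Cd4, Slc4a1 and Vwf lay between 5.67 and 7.003 in the RANKL arrays and between 5.23 and 6.54 in the M-CSF array. Of 5 markers of platelet precursors, mast cells and basophils, 2 were above background in every array. Their summed linear signal was 285, 236 and 301 in the RANKL arrays and 33491 in the M-CSF array, where Pf4 was the brightest; its part in the results was not tested. Of 8 neutrophil markers, 6 were above background in each RANKL array and 5 in the M-CSF array. Their summed linear signal was 50144, 43024 and 58846 in the RANKL arrays and 47488 in the M-CSF array, so the M-CSF value lay inside the range of the others; their part in the results was not tested. Of 9 macrophage markers, 6 were above background in each RANKL array and all 9 in the M-CSF array, with summed signals of 109491, 111380 and 96474 in the RANKL arrays and 293079 in the M-CSF array. Csf1r, the M-CSF receptor, made up most of the macrophage sum in each RANKL array. Csf1r had 16.72, 16.75 and 16.52 in the RANKL arrays and 16.98 in the M-CSF array, and its mean difference of -0.32 did not reach 2-fold.

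**Figure D1:**
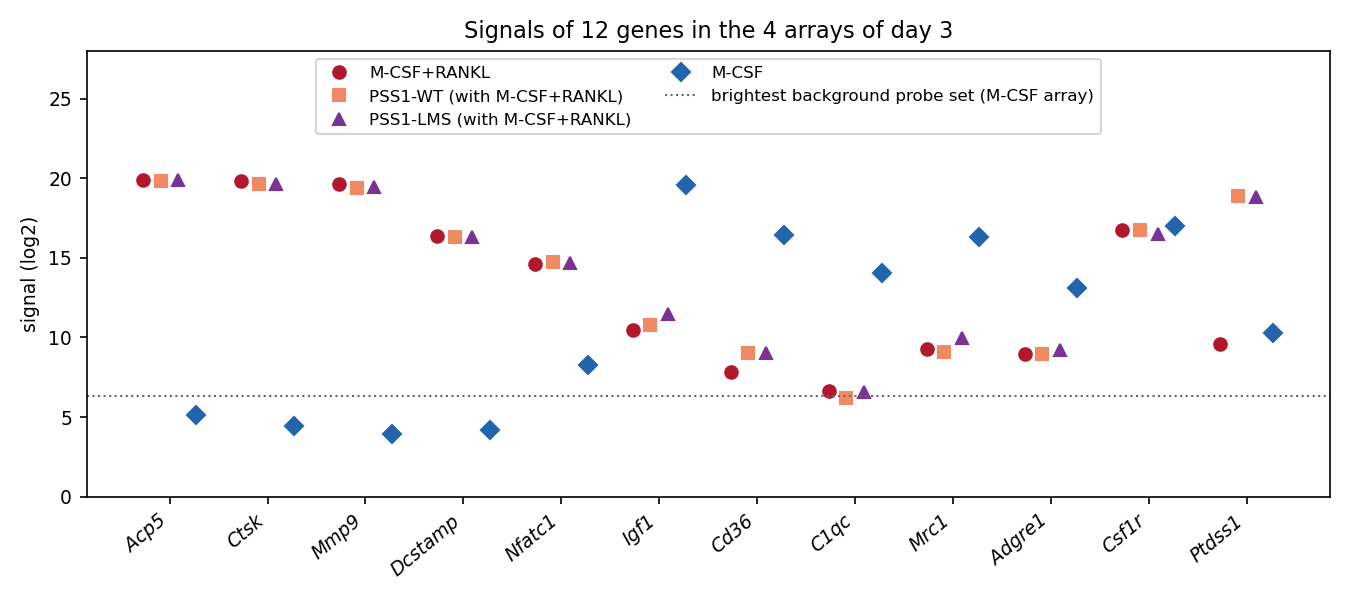
Log2 signal (vertical axis) of 12 genes in the M-CSF+RANKL, PSS1-WT, PSS1-LMS and M-CSF arrays of day 3, 1 point an array, with the brightest background probe set of the M-CSF array at 6.29 as a dotted line. Acp5, Ctsk, Mmp9 and Dcstamp are below that line only in the M-CSF array, Igf1 to Adgre1 are high only there, and Ptdss1 is high only in the arrays with an insert.

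The direction of change was shared by the 3 RANKL arrays in most genes. Of the 8411 measured genes, 3903 (46.4%) were higher and 3263 (38.8%) lower in all 3 arrays than in the M-CSF array, and 1245 had mixed directions. The 3 differences share the M-CSF array and are not independent. A gene is said here to have risen or fallen when it differed at least 2-fold the same way in all 3 RANKL arrays. By that rule 1499 genes rose (17.8%) and 1288 fell (15.3%), and a further 4379 had 1 direction but missed 2-fold in some array. The median difference over all measured genes was 0.10.

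With signals within background raised to their array's limit, 16-fold in all 3 arrays was reached by 118 higher and 111 lower genes, 64-fold by 31 and 20, and 256-fold by 16 and 1. Of the genes that rose, 487 were within background in the M-CSF array. Of those that fell, 332 were within background in some RANKL array and 219 in all 3.

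**Figure D2:**
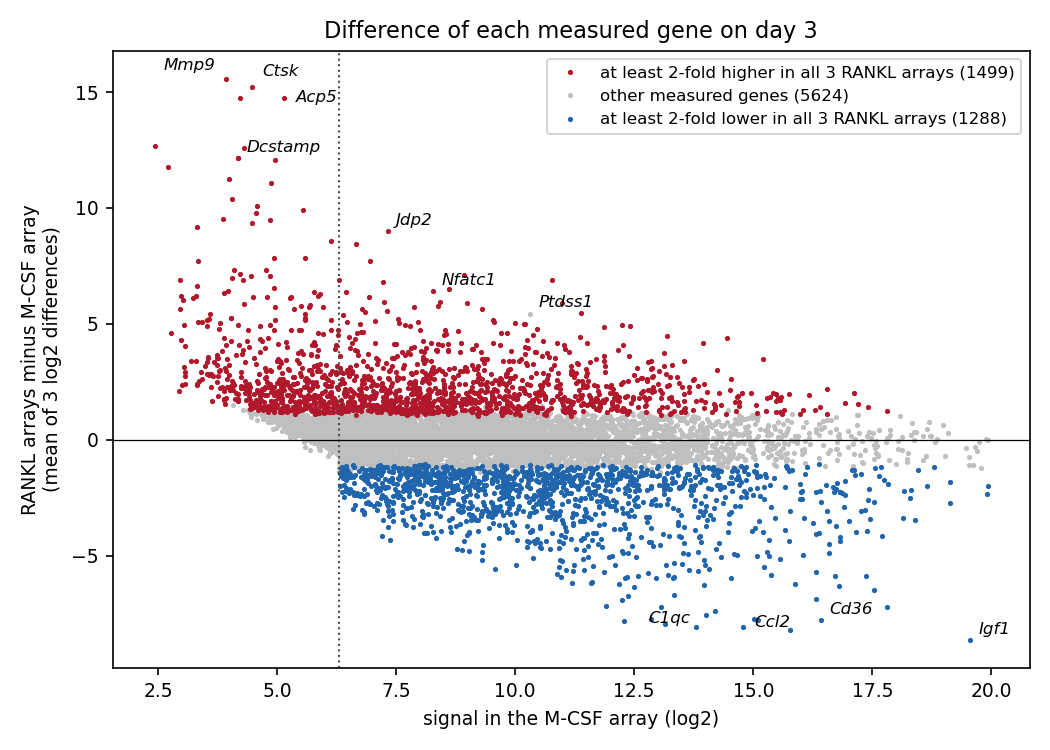
Mean of the 3 log2 differences from the M-CSF array (vertical axis) against the log2 signal in the M-CSF array (horizontal axis), 1 point for each of 8411 measured genes, with the M-CSF background limit as a dotted line. Red marks the 1499 genes at least 2-fold higher in all 3 RANKL arrays, blue the 1288 lower ones, and grey the rest, among them Ptdss1, whose 3 arrays disagree.

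Among genes above background in all 4 arrays, the 15 ranked first by their smallest rise held regulators, receptors and lysosomal proteins. Jdp2, an AP-1 family factor that osteoclast formation requires, had 16.47, 16.46 and 15.98 in the RANKL arrays, against 7.32 in the M-CSF array, a 507-fold rise. Fam102a, an adaptor of RANK signalling also called Eeig1, had 15.13, 14.94 and 15.19 in the RANKL arrays, against 6.66 in the M-CSF array. The 3 RANKL arrays lay within 0.50 of each other for both genes, far from the M-CSF array. Chchd10, a protein of the mitochondrial intermembrane space, rose 209-fold, and Bhlhe40, a helix-loop-helix repressor, rose 137-fold. Arsb, the lysosomal arylsulfatase that degrades dermatan sulfate, rose 118-fold. Camk2a, a calcium-dependent kinase, had 12.80, 12.86 and 12.84 in the RANKL arrays, against 6.46 in the M-CSF array, a spread of only 0.06 beside a mean difference of 6.38.

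The chemokine receptors Ccr1 (60.9-fold) and Ccr3 (46.8-fold) were in the same group. So were Dock5, an activator of Rac (59.0-fold), Prdm1, the repressor Blimp1 (53.2-fold), and Mfsd12, a lysosomal cysteine carrier (61.8-fold). Nudt22, a Nudix hydrolase, rose 111-fold. Pltp, which transfers phospholipids between lipoproteins, rose 71.7-fold, with 12.48, 13.08 and 13.72 in the RANKL arrays and 6.93 in the M-CSF array. Gpr137b-ps rose 58.9-fold; it is a near-identical copy of Gpr137b, and its probes may not separate the pair.

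Still larger folds, given as bounds, belonged to genes within background in the M-CSF array. Mmp9, a gelatinase of osteoclasts, had 19.63, 19.39 and 19.47 in the RANKL arrays, against 3.93 in the M-CSF array, at least 9445-fold. Mmp14, a membrane-bound metalloproteinase, was at least 1706-fold higher. Akr1c18, a hydroxysteroid dehydrogenase, was at least 1541-fold higher, and Cyp2s1, a cytochrome P450, at least 1044-fold. Myo1d, a single-headed myosin, was at least 792-fold and Tm4sf19, a membrane protein of osteoclasts, at least 572-fold higher.

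The 15 genes ranked first among the falls, by the same rule, began with a growth factor. Igf1, insulin-like growth factor, had 10.49, 10.81 and 11.50 in the RANKL arrays, against 19.56 in the M-CSF array, a 394-fold fall. Ly86, the partner of the receptor Cd180, had 7.69, 7.17 and 7.85 in the RANKL arrays, against 15.78 in the M-CSF array, a 296-fold fall. Ccl2, the chemokine that draws monocytes, fell 273-fold to 6.62, 6.68 and 6.81 in the RANKL arrays, against 14.79 in the M-CSF array. The M-CSF signal was above all 3 RANKL signals by more than 7 log2 units in each of these genes.

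The other falls in this group included Cd36, a scavenger receptor (220-fold), Pf4, a chemokine of platelets and macrophages (212-fold), and Slc15a3, a lysosomal peptide transporter (169-fold). Dab2, an adaptor of endocytosis, fell 149-fold, B4galt6, a lactosylceramide synthase, 103-fold, and Selenop, the selenium transport protein, 79.7-fold. Tcf7l2, a transcription factor of Wnt signalling, fell 77.7-fold. Dhrs3, which reduces retinaldehyde, fell 60.1-fold, and Sh3bp5, a Btk-binding protein, 54.0-fold. Genes within background in the RANKL arrays are given as bounds. Gpr65, a proton-sensing receptor, was at least 219.6-fold lower. Fcrls was at least 80.7-fold, Slc9a9, an endosomal sodium-proton exchanger, at least 75.4-fold, Iqgap2, a scaffold protein, at least 61.9-fold, and Eng, a TGF-β co-receptor, at least 66.1-fold lower.

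Promoters of these 50 genes, 25 in each direction, were searched for motifs. The genes were chosen by the size of their change in these arrays, so the shared direction of each set follows from that choice. RefSeq start sites of build GRCm38.p6 were found for 16 of the 25 higher genes (20 windows) and 20 of the 25 lower genes (27 windows), and the 250 bases before each start were read on both strands. The letters searched were TGANTCA for AP-1, TGGAAA for NFAT, TCACGTG for MiT factors and GAGGAAG for PU.1, the factor that macrophages and osteoclasts both need; the NFAT and PU.1 letters share GGAA. The PU.1 letters were in 13 windows of lower genes (48.1%), in 3 of the 20 windows of higher genes and in 10.6% of all 32817 windows. The 13 windows belong to 12 genes, and overlapping windows of Selenop hold the same site. All windows include those of genes not measured in these arrays. The NFAT letters were in 20.0% of higher, 18.5% of lower and 18.6% of all windows, and the AP-1 letters in 10.0%, 7.41% and 6.75%. The MiT letters were in none of the windows of either set and in 3.13% of all. These shares are a description, and a match is not a site of binding. The windows below show where the letters lie in 3 higher genes (Ctsk, Prdm1, Ccr3) and 3 lower ones (Fcgr1, Mrc1, Gpr65). Windows without a match, such as those of Arsb and C1qb, are not shown. Each window shown runs 5′ to 3′ along the gene's strand and ends at the base before the start. Matches to any searched motif or its reverse complement are in capitals.
Ctsk, chr3:95498960-95499209, plus strand: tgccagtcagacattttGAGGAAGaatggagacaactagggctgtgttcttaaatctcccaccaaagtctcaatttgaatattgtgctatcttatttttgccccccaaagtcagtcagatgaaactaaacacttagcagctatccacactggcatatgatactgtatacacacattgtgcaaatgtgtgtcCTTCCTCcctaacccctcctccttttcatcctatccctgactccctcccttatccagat
Prdm1, chr10:44458749-44458998, minus strand: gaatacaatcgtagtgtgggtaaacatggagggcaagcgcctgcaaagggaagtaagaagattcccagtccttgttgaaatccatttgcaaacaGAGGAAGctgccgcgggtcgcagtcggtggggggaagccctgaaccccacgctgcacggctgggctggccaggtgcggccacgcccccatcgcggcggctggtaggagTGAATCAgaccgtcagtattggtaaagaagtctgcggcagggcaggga
Ccr3, chr9:124021721-124021970, plus strand: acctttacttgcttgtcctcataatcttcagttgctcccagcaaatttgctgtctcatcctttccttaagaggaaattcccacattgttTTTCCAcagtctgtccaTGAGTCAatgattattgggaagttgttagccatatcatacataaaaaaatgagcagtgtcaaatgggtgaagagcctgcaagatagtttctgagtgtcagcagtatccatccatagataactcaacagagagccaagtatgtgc
Fcgr1, chr3:96293970-96294219, minus strand: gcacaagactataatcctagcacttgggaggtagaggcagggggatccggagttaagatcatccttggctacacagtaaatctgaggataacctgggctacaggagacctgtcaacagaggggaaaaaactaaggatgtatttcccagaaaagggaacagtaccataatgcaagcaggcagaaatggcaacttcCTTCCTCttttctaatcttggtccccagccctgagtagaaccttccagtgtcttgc
Mrc1, chr2:14229164-14229413, plus strand: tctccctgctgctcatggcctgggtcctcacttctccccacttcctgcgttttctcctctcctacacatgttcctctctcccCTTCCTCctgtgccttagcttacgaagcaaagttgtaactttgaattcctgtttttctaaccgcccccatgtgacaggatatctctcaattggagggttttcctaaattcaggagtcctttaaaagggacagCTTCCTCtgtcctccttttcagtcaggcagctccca
Gpr65, chr12:98268385-98268634, plus strand: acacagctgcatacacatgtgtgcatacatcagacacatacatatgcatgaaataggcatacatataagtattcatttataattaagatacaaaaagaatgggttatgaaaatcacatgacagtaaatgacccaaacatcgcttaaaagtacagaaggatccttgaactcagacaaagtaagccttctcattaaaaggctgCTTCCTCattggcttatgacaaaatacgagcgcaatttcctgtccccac
The PU.1 letters began 56 bases before the start in Fcgr1, 49 in Gpr65, 168 and 36 in Mrc1, 233 and 59 in Ctsk, and 156 in Prdm1. The AP-1 letters began 48 bases before the start in Prdm1 and 144 in Ccr3, where NFAT letters also began at 161.

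Genes of resorption and acid secretion were nearly all higher. Of 17 measured members 16 rose and none fell, with a median difference of 5.46 beside 0.10 over all genes. Car2, the carbonic anhydrase that supplies protons, had 15.93, 15.22 and 14.63 in the RANKL arrays, against 3.996 in the M-CSF array, at least 501-fold. Its 3 RANKL signals lay 1.29 apart, and the M-CSF signal was within background. Atp6v0d2, the osteoclast form of a proton pump subunit, had 19.17, 18.91 and 18.89 in the RANKL arrays, against 4.23 in the M-CSF array, at least 6648-fold. Rab7, a GTPase of late endosomes, was the member that did not pass, at 0.17.

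The proton pump rose as a set. Of 17 measured subunits of the vacuolar ATPase, 14 rose and 1 fell, with a median of 3.34. Tcirg1, the a3 subunit that osteoclasts carry to the bone surface, had 17.46, 17.79 and 17.69 in the RANKL arrays and 13.18 in the M-CSF array, a 22.1-fold rise. Atp6v1d rose 33.7-fold, Atp6v1b2 18.3-fold and Atp6v1a 16.8-fold, all subunits of the part that splits ATP. Atp6v0a1, the a1 subunit, went the other way, with 11.23, 10.88 and 11.62 in the RANKL arrays and 15.21 in the M-CSF array. The a1 and a3 forms are alternatives in the same place of the pump, and they moved in opposite directions in each RANKL array.

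Lysosomal hydrolases and membrane proteins did not share that direction. Of 21 measured members 7 rose and 10 fell, with a median of -1.08. Ctsz, Ctsa and Cd63 rose 4.20-fold, 4.002-fold and 3.97-fold. Ctsc, an activator of serine proteases, had 11.49, 11.59 and 12.08 in the RANKL arrays and 16.58 in the M-CSF array, a 29.1-fold fall. Ctsl fell 11.9-fold and Ctss 7.50-fold, both cysteine proteases of phagocytes, and the membrane proteins Lamp2 and Lamp1 fell 10.9-fold and 8.43-fold.

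Genes of precursor fusion moved in both directions. Of 15 measured members 8 rose and 3 fell, with a median of 2.01. Dcstamp, the membrane protein that fusion requires, had 16.38, 16.28 and 16.28 in the RANKL arrays, against 4.18 in the M-CSF array, at least 1039-fold. Ocstamp, its relative, had 15.50, 15.09 and 14.74 in the RANKL arrays, against 2.43 in the M-CSF array, at least 451-fold. Myo10, a motor of filopodia, rose 31.5-fold. The 3 members that fell were the tetraspanins Cd81 (89.5-fold) and Cd53 (3.78-fold) and the protease Adam8 (15.8-fold).

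The receptor RANK and the NF-κB arm behind it were higher in part. Of 19 measured members of RANK signalling 10 rose and 1 fell, with a median of 1.20, or 0.82 with background signals raised to their limits. Tnfrsf11a, which encodes RANK, had 11.22, 11.33 and 11.13 in the RANKL arrays and 9.22 in the M-CSF array, a 4.02-fold rise. Tnfaip3, the enzyme A20 that dampens NF-κB, rose 32.9-fold, Nfkb2, which encodes p100, 14.1-fold, and Nfkbia, an inhibitor of NF-κB, 11.1-fold. Ikbkg, the regulatory subunit of the IκB kinase, was at least 5.88-fold higher. Mapk14, the p38α kinase, was the member that fell, 2.88-fold.

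Transcription factors of osteoclasts moved in part. Of 19 measured members 9 rose and 1 fell, with a median of 0.99. Nfatc1 had 14.61, 14.74 and 14.67 in the RANKL arrays, against 8.27 in the M-CSF array, an 84.7-fold rise with a spread of 0.13. Fos, an AP-1 subunit upstream of Nfatc1, rose 34.1-fold, and Fosl2, its relative, at least 119-fold. Ppargc1b, a co-activator of mitochondrial genes, was at least 57.2-fold higher. Fosl1, another AP-1 subunit, fell 2.29-fold. Tfec, a MiT factor, rose 3.41-fold. Mitf and Tfe3, its relatives, had mean differences of 0.54 and -1.17, and Spi1, which encodes PU.1, had 0.64; none of these passed in all 3 arrays.

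Of 13 measured genes known to restrain osteoclast formation, 9 fell and 4 rose, with a median of -2.71. With background signals raised to their limits, 8 fell and 3 rose. Id2, an inhibitor of helix-loop-helix factors, had 10.23, 10.05 and 9.92 in the RANKL arrays, against 15.09 in the M-CSF array, a 32.4-fold fall. Rbpj, the DNA-binding factor of Notch signalling, fell 11.4-fold, and the adaptor Dok2 15.1-fold. Id1 was at least 7.84-fold lower. The 4 that rose were Rcan1, an inhibitor of calcineurin (10.6-fold), the adaptors Dok3 (9.32-fold) and Dok1 (3.95-fold), and Lgr4, a receptor that can bind RANKL (at least 1.76-fold).

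The receptors that give the second signal for Nfatc1, through adaptors with ITAM motifs, were also divided. Of 13 measured members 2 rose and 7 fell, with a median of -1.29. Oscar, an osteoclast receptor of collagen, had 14.89, 14.19 and 14.40 in the RANKL arrays, against 2.71 in the M-CSF array, at least 294-fold. Trem2, a lipid-sensing receptor of macrophages, had 8.79, 9.43 and 10.21 in the RANKL arrays and 13.90 in the M-CSF array, a 21.5-fold fall. Fcgr3, an IgG receptor, fell 59.3-fold, while Syk, the kinase that these receptors use, rose 2.78-fold.

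Genes of the podosome belt, the actin ring by which osteoclasts seal on bone, were mostly higher. Of 21 measured members 12 rose and 5 fell, with a median of 1.93. Src, the kinase that podosomes need, had 11.49, 11.45 and 11.11 in the RANKL arrays, against 4.22 in the M-CSF array, at least 33.3-fold. Itgb3, the β3 integrin, had 14.88, 14.25 and 13.86 in the RANKL arrays, against 4.85 in the M-CSF array, at least 263-fold. Its partner Itgav rose 14.5-fold. Cttn, which encodes cortactin, was at least 9.65-fold higher, and the motor Myo1e rose 21.4-fold. Itgb5, which pairs with the same partner, fell 33.1-fold, with 7.64, 7.39 and 7.46 in the RANKL arrays and 12.54 in the M-CSF array. Rac1, Ezr, Cbl and Vav3 fell between 2.22-fold and 2.90-fold. Among integrin subunits 3 of 12 rose and 4 fell, counts too small to set apart from the 17.8% and 15.3% of all genes. Itga2 was at least 25.2-fold higher, Itgal at least 51.0-fold lower, and Itga6 fell 31.2-fold.

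**Figure D3:**
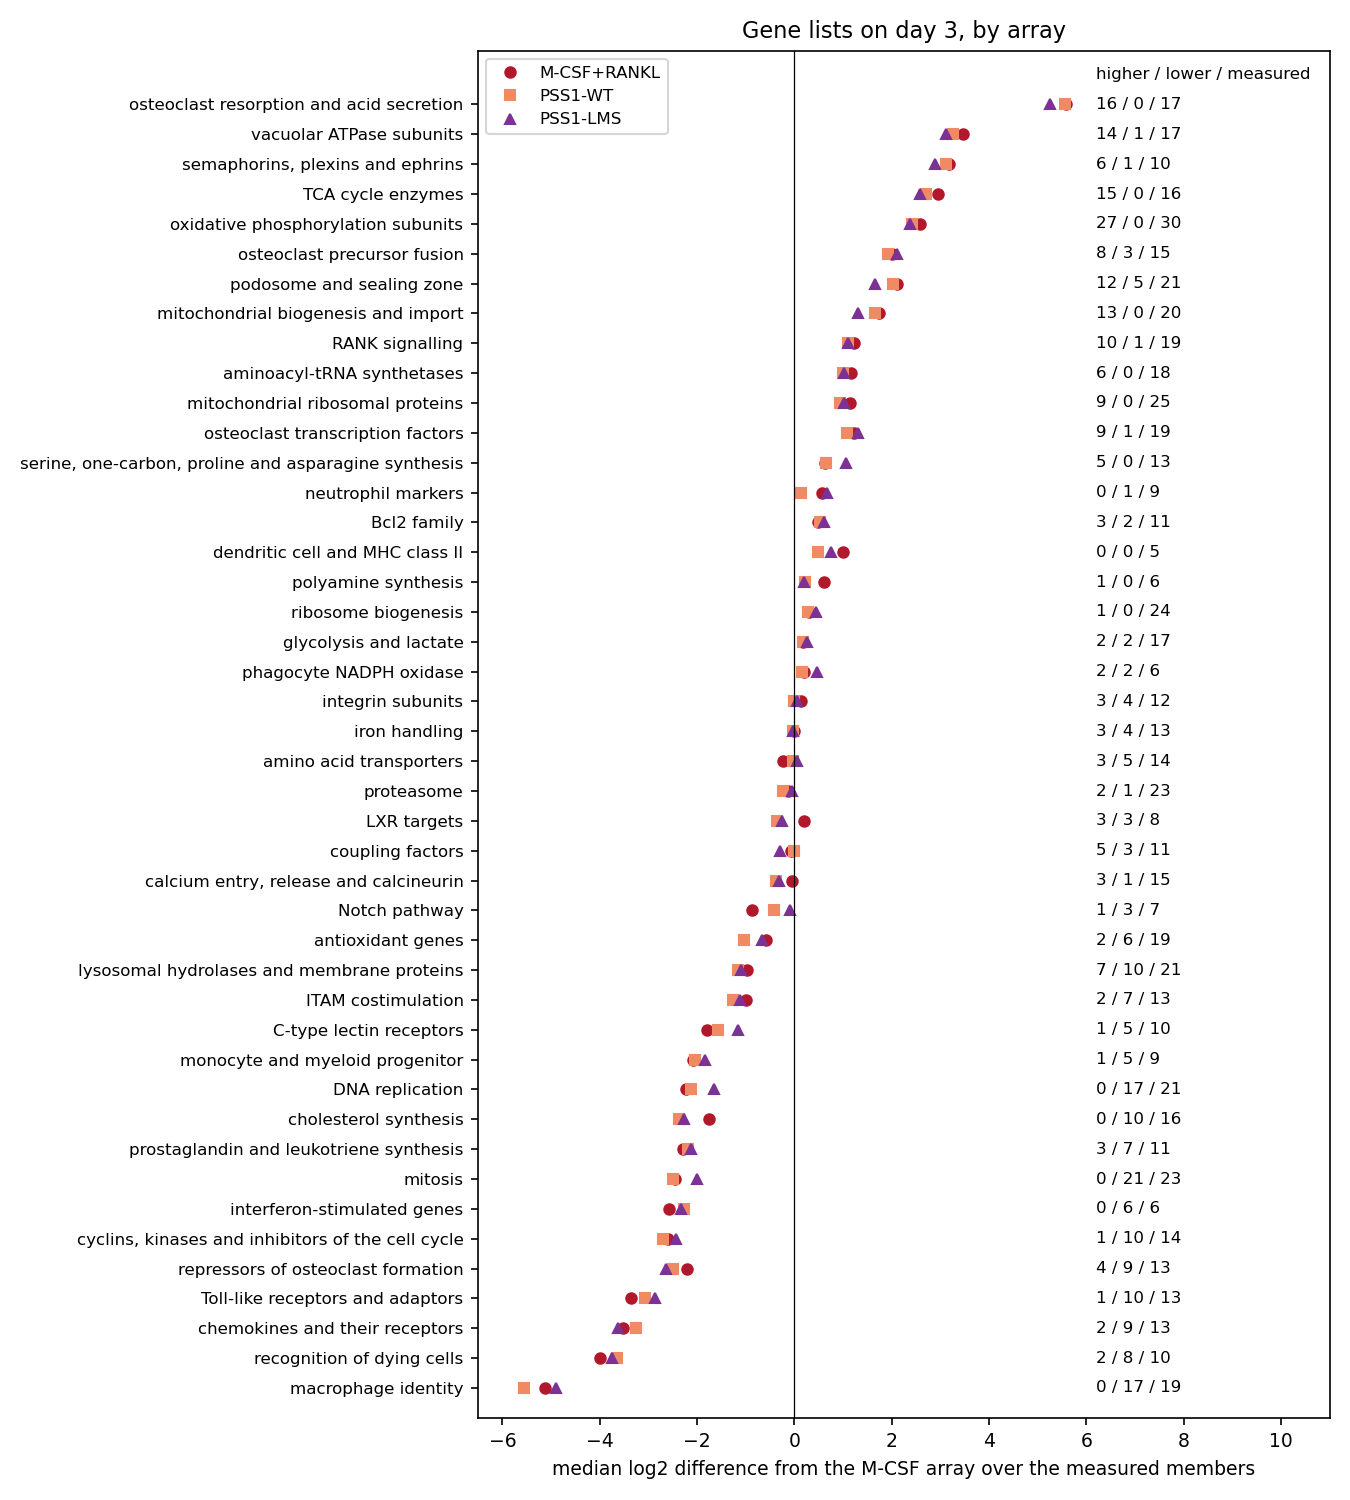
Median log2 difference from the M-CSF array (horizontal axis) over the measured members of each gene list with at least 5 of them, 1 point for each of the 3 RANKL arrays, with the numbers of members that rose, fell and were measured at the right. Resorption, proton pump and mitochondrial lists lie right of 0 in all 3 arrays and macrophage lists left of 0, and the lists were chosen with earlier results of these data known.

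Mitochondrial energy genes were higher across complexes. Of 30 measured subunits of oxidative phosphorylation 27 rose and none fell, with a median of 2.50. Sdha, the catalytic subunit of succinate dehydrogenase, had 11.80, 11.67 and 11.89 in the RANKL arrays and 7.81 in the M-CSF array, a 15.8-fold rise. Uqcrc1 and Uqcrc2, core subunits of complex III, rose 13.6-fold and 13.8-fold. Ndufv1, a subunit of complex I, rose 9.43-fold. Of 16 enzymes of the tricarboxylic acid cycle and its entry 15 rose, with a median of 2.81. Pdhb, a subunit of pyruvate dehydrogenase, rose 15.97-fold, and Mdh2, malate dehydrogenase, 13.5-fold.

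Other mitochondrial sets moved the same way by less. Of 20 genes of mitochondrial biogenesis and import 13 rose, with a median of 1.59. Tomm40, the channel of the outer membrane, rose 8.19-fold, and the chaperonin Hspd1 5.82-fold. Of 25 mitochondrial ribosomal proteins 9 rose, with a median of 1.07, and Mrpl12 rose 5.60-fold. No member of these sets fell. Glycolysis had 2 risen and 2 fallen genes among 17 measured, with a median of 0.28. Both shares were below the 17.8% and 15.3% of all genes. Hk1, a hexokinase, rose 3.30-fold, while Slc2a1, the glucose carrier, fell 2.76-fold and Slc16a3, a lactate carrier, 4.44-fold.

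Most tRNA synthetases of the cytosol were higher, while amino acid carriers moved in both directions. Of 18 tRNA synthetases 6 rose and none fell, with a median of 1.08 and Iars first at 4.81-fold. A further 11 were higher in all 3 arrays but missed 2-fold in some array. Of 13 genes of serine, one-carbon, proline and asparagine synthesis 5 rose, among them Asns, asparagine synthetase, 12.3-fold. With background signals raised to their limits, 4 of these 13 rose. Over all genes 17.8% rose. Slc1a5, a glutamine carrier, had 14.74, 14.64 and 14.68 in the RANKL arrays and 9.54 in the M-CSF array, a 35.5-fold rise. Slc7a8, a carrier of neutral amino acids, had 11.17, 11.20 and 12.10 in the RANKL arrays and 17.37 in the M-CSF array, a 58.9-fold fall. Ribosome biogenesis had 1 risen gene of 24, Npm1 at 2.38-fold, a share below that of all genes. The proteasome had 2 risen genes, Psmb7 and Psma6, and 1 fallen gene, Psmc3, among 23, shares below those of all genes.

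Macrophage identity genes fell with few exceptions. Of 19 measured members 17 fell and none rose, with a median of -5.06, or -4.48 with background signals raised to their limits. C1qc, a chain of the first complement component, had 6.62, 6.21 and 6.58 in the RANKL arrays, against 14.02 in the M-CSF array, a 187-fold fall. C1qb fell 219-fold, and C1qa was at least 120.1-fold lower. Fcgr1, the high-affinity IgG receptor, had 5.18, 4.98 and 5.47 in the RANKL arrays, against 13.14 in the M-CSF array, at least 147-fold lower. Maf, a transcription factor of macrophages, was at least 78.3-fold lower. Mrc1, the mannose receptor, fell 117-fold. Adgre1, which encodes F4/80, had 8.95, 8.94 and 9.18 in the RANKL arrays and 13.10 in the M-CSF array, a 16.9-fold fall. The members that did not pass were Csf1r and Cd180.

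Monocyte and progenitor genes were measured in smaller number. Of 9 measured members 5 fell and 1 rose, with a median of -1.99, or -0.37 with background signals raised to their limits. F13a1, a coagulation factor made by monocytes, was at least 38.4-fold lower, and Ccr2, the Ccl2 receptor, at least 16.04-fold lower. Irf8, a factor that blocks osteoclast formation, had 4.23, 4.27 and 4.48 in the RANKL arrays, all within background, and 6.32 in the M-CSF array, just above its limit. Chil3 rose 2.39-fold. Of 9 neutrophil genes, Mmp8 fell 22.0-fold and no other passed. Of 5 measured genes of dendritic cells and MHC class II none passed.

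Most measured Toll-like receptors and adaptors, by which phagocytes sense microbes, fell. Of 13 measured Toll-like receptors and adaptors 10 fell and 1 rose, with a median of -3.09. Tlr7, a receptor of single-stranded RNA, had 9.10, 9.47 and 10.47 in the RANKL arrays, against 15.89 in the M-CSF array, a 73.8-fold fall. Tlr13, a receptor of bacterial RNA, fell 62.6-fold, and Cd14, the co-receptor of lipopolysaccharide, 33.3-fold. Ticam1, an adaptor of Tlr3 and Tlr4, was the one that rose, 2.21-fold. Of 6 measured interferon-stimulated genes all 6 fell, with Stat2 at 7.67-fold and Bst2 at 6.09-fold. The other 11 of 17 matched genes were within background. All 6 exceeded background in the M-CSF array but only 3 in each RANKL array, so some entered only through the M-CSF array. With background signals raised to their limits, 5 fell, and the median was -1.82 in place of -2.45. Of 10 C-type lectin receptors 5 fell, among them Clec4d (18.4-fold) and Clec4e (17.8-fold), and Clec4a2 rose 8.11-fold.

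Most measured chemokines and chemokine receptors fell, and a pair of receptors rose. Of 13 measured members 9 fell and 2 rose, with a median of -3.47, or -2.79 with background signals raised to their limits. The summed linear signal of the list's 18 matched genes was 755140, 723435 and 745927 in the RANKL arrays and 477614 in the M-CSF array. This total was higher in each RANKL array, while the median of the members was lower. A linear total follows its brightest members, and most of it came from members not named in this paragraph. Ccl3 had 8.37, 8.53 and 9.44 in the RANKL arrays and 13.96 in the M-CSF array, a 36.3-fold fall. Ccl7 was at least 32.2-fold lower, and the receptor Cx3cr1 at least 12.3-fold lower. The 2 that rose were Ccr1, with 14.52, 14.34 and 14.16 in the RANKL arrays and 8.41 in the M-CSF array, and Ccr3, with 12.80, 12.88 and 12.88 in the RANKL arrays and 7.31 in the M-CSF array.

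Genes for the recognition of dying cells, which display phosphatidylserine, were lower. Of 10 measured members 8 fell and 2 rose, with a median of -3.80, or -3.12 with background signals raised to their limits. Gas6, which bridges phosphatidylserine to receptors of the Mertk family, had 6.53, 5.57 and 5.46 in the RANKL arrays, against 13.06 in the M-CSF array, at least 123-fold lower. Stab1, a phosphatidylserine receptor, was at least 81.3-fold and Mertk at least 10.3-fold lower. Mfge8, another bridging protein, rose 16.1-fold, with 12.09, 11.69 and 11.82 in the RANKL arrays and 7.86 in the M-CSF array. Thbs1, a matrix protein that also binds dying cells, was at least 1.31-fold higher. The median was -3.999 in the M-CSF+RANKL array, -3.64 in the PSS1-WT array and -3.75 in the PSS1-LMS array, so all 3 lay below the M-CSF array by similar amounts.

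Sterol genes fell in part. Of 16 measured genes of cholesterol synthesis 10 fell and none rose, with a median of -2.10. Sqle, squalene epoxidase, was at least 22.5-fold lower, with 6.10, 5.59 and 6.02 in the RANKL arrays and 10.52 in the M-CSF array. Cyp51, a lanosterol demethylase, fell 14.4-fold, and Fdft1, squalene synthase, 14.97-fold. Targets of LXR, the receptor of oxidised sterols, had 3 risen and 3 fallen genes among 8. These counts are too small to set apart from the shares of all genes. Pltp was among the risen ones, while Apoe, the lipid carrier, fell 4.10-fold, and Mylip, which degrades the LDL receptor, fell 8.35-fold.

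Iron genes shifted in both directions. Of 13 measured members 3 rose and 4 fell, with a median of -0.02. These counts are too small to set apart from the 17.8% and 15.3% of all genes. Tfrc, the transferrin receptor, had 16.20, 15.62 and 15.18 in the RANKL arrays and 11.51 in the M-CSF array, a 17.8-fold rise. Steap4, a metalloreductase, was at least 36.9-fold higher, and Slc11a2, an importer of ferrous iron, rose 4.77-fold. Slc40a1, the iron exporter, had 6.66, 6.29 and 7.14 in the RANKL arrays and 11.45 in the M-CSF array, a 27.0-fold fall. Hmox1, which frees iron from haem, fell 17.99-fold. Trf, transferrin itself, and Slc11a1, a metal carrier of phagosomes, fell 14.2-fold and 11.2-fold.

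Antioxidant genes were lower in part, with 6 fallen and 2 risen among 19 measured and a median of -0.87. Gclc and Gclm, the subunits of the enzyme that starts glutathione synthesis, fell 6.46-fold and 5.73-fold. Sod2, the mitochondrial superoxide dismutase, rose 3.12-fold, and Gsr, glutathione reductase, 2.58-fold. Subunits of the phagocyte NADPH oxidase were divided. Cybb, the catalytic subunit, fell 15.04-fold and Ncf1 30.4-fold, while Ncf4 rose 4.81-fold and Rac2 14.8-fold.

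Most measured genes of mitosis and DNA replication fell. Of 23 measured genes of mitosis 21 fell and none rose, with a median of -2.34. Mki67, the proliferation marker, had 14.19, 14.34 and 14.47 in the RANKL arrays and 17.35 in the M-CSF array, an 8.08-fold fall. Plk1, a mitotic kinase, fell 8.37-fold. Of 21 genes of DNA replication 17 fell and none rose, with a median of -2.05. With background signals raised to their limits, 15 fell and the median was -1.79. Pcna, the sliding clamp of DNA polymerase, fell 8.39-fold, and Mcm3 of the replicative helicase 6.78-fold. Of 14 cyclins, kinases and inhibitors 10 fell and 1 rose. E2f2, an activator of S-phase genes, fell 29.2-fold, and Ccnd3, a D-type cyclin, 10.1-fold. Cdkn1a, the inhibitor p21, also fell, 10.3-fold. Cdkn1b, the inhibitor p27, was the one that rose, with 9.37, 8.60 and 8.55 in the RANKL arrays and 7.42 in the M-CSF array.

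In the Bcl2 family 3 of 11 measured genes rose and 2 fell, counts too small to set apart from the 17.8% and 15.3% of all genes. Bcl2l1, which encodes the survival protein Bcl-xL, had 6.02, 6.06 and 6.17 in the RANKL arrays and 10.52 in the M-CSF array, a 21.6-fold fall. Bcl2 fell 11.4-fold. Mcl1, another survival protein, rose 2.50-fold, and Bcl2l11, the killer Bim, 3.52-fold. The third gene past 2-fold higher, Bad, was within background in the M-CSF array and gets no fold. The median was 0.55 as measured and -0.30 with background signals raised to their limits. The near-identical copies Bcl2a1a, Bcl2a1b and Bcl2a1d may share probes, and none of them reached 2-fold.

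The 3 RANKL arrays were close to each other beside their distance from the M-CSF array. Over the 2787 genes that rose or fell, the range of the 3 differences had a median of 0.40, was under 0.5 in 1767 genes and exceeded 1 in 140 (5.02%). The rise was largest in the M-CSF+RANKL array in 849 of the 1499 genes that rose, against 250 for the PSS1-WT array and 400 for the PSS1-LMS array. The fall was smallest in the PSS1-LMS array in 719 of the 1288 genes that fell, against 352 for the M-CSF+RANKL array and 217 for the PSS1-WT array. Each vector was 1 array, so these counts describe arrays.

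The 6 genes with the widest range were all fallen genes with the smallest fall in the PSS1-LMS array. Pmp22, a membrane protein first known from myelin, had 9.38, 10.61 and 11.94 in the RANKL arrays and 16.32 in the M-CSF array. Il7r, a receptor chain of interleukin 7, had 6.46, 7.82 and 8.32 in the RANKL arrays and 11.22 in the M-CSF array. Cd93, a C-type lectin-like receptor, had 6.56, 7.25 and 8.21 in the RANKL arrays and 13.31 in the M-CSF array. In each, the M-CSF+RANKL array was lowest and the PSS1-LMS array nearest to M-CSF, with none of the 3 reaching the M-CSF signal. Mmp12, a macrophage elastase, Hk3, a hexokinase, and Lpxn, a focal adhesion protein, had the same order, with ranges of 1.57, 1.505 and 1.47.

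**Figure D4:**
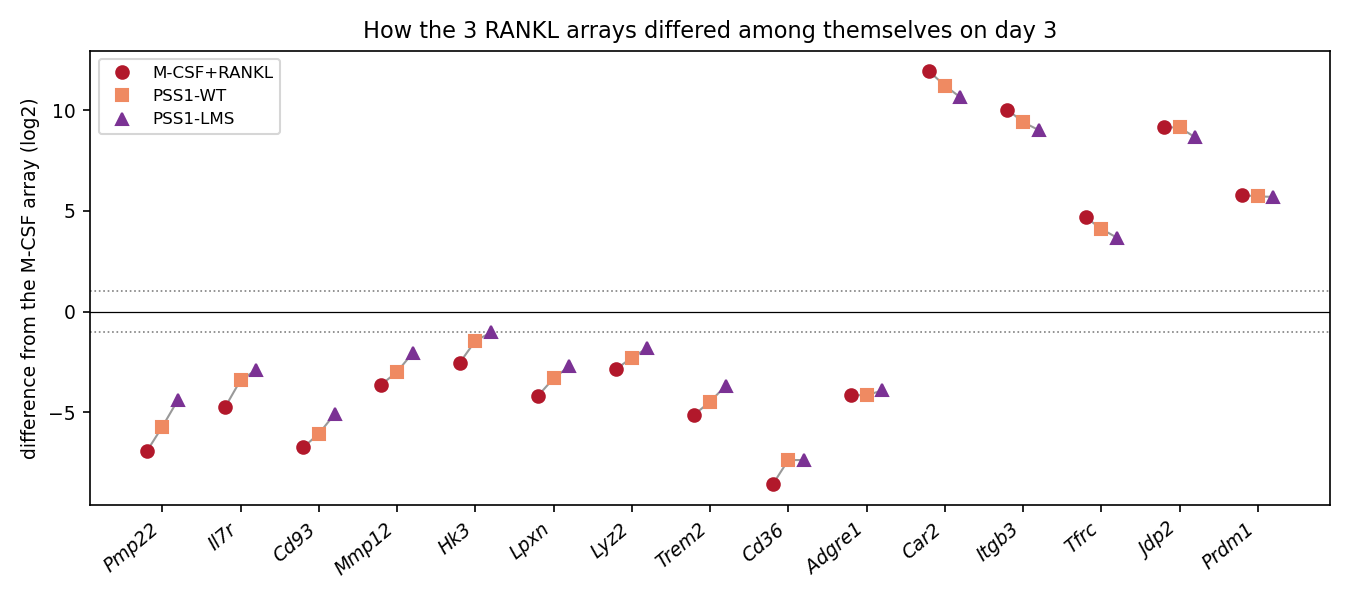
Log2 difference from the M-CSF array (vertical axis) in the 3 RANKL arrays of day 3, joined by a line for each gene, with 2-fold limits dotted. The first 6 genes have the widest ranges, 1.47 to 2.56, among genes above background in all 4 arrays that rose or fell; the other 9 were picked with their values known, and all points of a gene lie on 1 side of 0.

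Some genes sat at the 2-fold limit. Tle1, Chchd7 and St7l were the last of the risen genes, and Btk, Cgrrf1 and Zkscan1 just missed, all 6 with a smallest difference that rounds to 1. Slx4, Cenpo and H3f3b were the last of the fallen genes, and Tgs1, Casp8ap2 and Cdc123 just missed. Btk, a kinase that acts with Syk, had a mean difference of 1.26 and missed the limit in the PSS1-WT array alone, with 11.25 there and 10.25 in the M-CSF array.

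Arrays of the same treatments on day 6, not used above, gave a second reading. On day 6, 1449 genes (16.7%) rose and 1325 (15.3%) fell of 8679 measured. These counts use signals as deposited, without raising background to its limit. On day 6 the brightest background probe set stood at 5.66, 5.54 and 6.26 in the RANKL arrays and at 7.13 in the M-CSF array. Genes above these limits numbered 8193, 8319 and 7353 in the RANKL arrays and 6305 in the M-CSF array. Of the 1499 genes that rose on day 3, 874 also rose on day 6 (58.3% of the day 3 genes, 60.3% of the day 6 genes), and 20 fell. Of the 1288 that fell on day 3, 718 also fell on day 6 (55.7% of the day 3 genes, 54.2% of the day 6 genes), and 8 rose.

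For several sets the M-CSF array differed between days more than the RANKL arrays did. The median signal of DNA replication genes was 8.31, 8.24 and 8.83 in the RANKL arrays and 10.60 in the M-CSF array on day 3, and 8.80, 8.73 and 8.97 in the RANKL arrays and 8.34 in the M-CSF array on day 6. Mitosis genes fell in 21 of 23 members on day 3 and in 3 on day 6. Ribosome biogenesis genes had medians of 10.00, 9.87 and 9.96 in the RANKL arrays and 10.17 in the M-CSF array on day 3, and 9.96, 10.06 and 9.98 in the RANKL arrays and 7.72 in the M-CSF array on day 6, when 19 of them rose. The LXR targets had 9.61, 9.50 and 9.75 in the RANKL arrays and 9.03 in the M-CSF array on day 3, and 9.96, 9.69 and 10.05 in the RANKL arrays and 13.96 in the M-CSF array on day 6. Medians of the RANKL arrays moved by less than 1 log2 unit between days in these 4 sets. The ribosome biogenesis median of 7.72 in the M-CSF array of day 6 lay close to that array's background limit of 7.13. Signals below that limit cannot be told apart from background.

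Single genes showed the same. Atp6v0d2 was within background in the M-CSF array of day 3 and had 12.55 in that of day 6; it was at least 6648-fold higher in the RANKL arrays on day 3, and its mean difference on day 6 was 6.34. Tnf, the inflammatory cytokine, had 7.34, 6.50 and 7.32 in the RANKL arrays and 11.39 in the M-CSF array on day 3, and between 6.91 and 7.38 in the RANKL arrays and 7.24 in the M-CSF array on day 6. Srm, spermidine synthase, had 13.51, 13.55 and 13.55 in the RANKL arrays and 12.76 in the M-CSF array on day 3, and 13.30, 13.40 and 13.11 in the RANKL arrays and 7.66 in the M-CSF array on day 6. Fcgrt, the neonatal Fc receptor, had a mean difference of -0.02 on day 3 and -6.14 on day 6. The M-CSF signals of Tnf and Srm on day 6 lay close to that array's background limit of 7.13. With 1 M-CSF array a day, the day, the culture and the array cannot be told apart in these values.

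**Figure D5:**
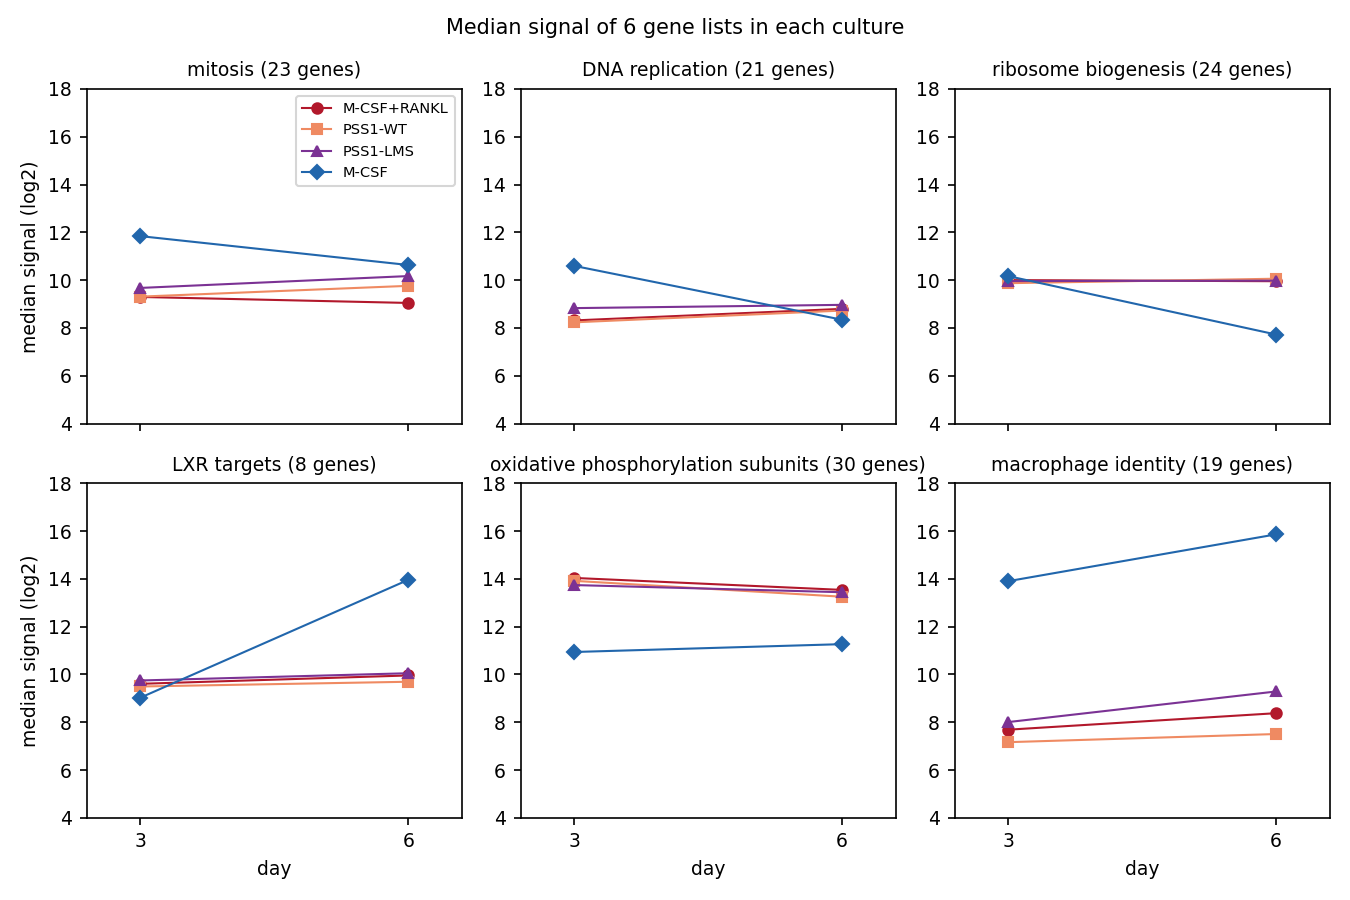
Median log2 signal (vertical axis) of the members of 6 gene lists on days 3 and 6 (horizontal axis), with 1 line for each of the M-CSF+RANKL, PSS1-WT, PSS1-LMS and M-CSF treatments and 1 array at each point. The M-CSF line of ribosome biogenesis drops to 7.72 and that of LXR targets climbs to 13.96 on day 6, while the RANKL lines stay between 9.50 and 10.06 in both panels. The background limit of the M-CSF array of day 6 was 7.13.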

How the data were processed

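The deposited values were log2 signals of an Affymetrix mouse array, 1 column a sample, from the authors' matrix. The summary of probes and the normalization between arrays are "not given in the sources used here". A log2 scale was read from the values. They were used as deposited. Of 22206 transcript clusters, 19572 carried 1 gene symbol in the platform annotation (19505 genes; for 55 genes with several clusters the brightest was used) and 2634 carried none. A gene was measured when it exceeded the brightest of 23 background probe sets in at least 1 day 3 array. It was called when all 3 RANKL arrays differed from the M-CSF array by at least 1 on the log2 scale in the same direction. Folds use the mean of the 3 RANKL arrays; a side within background was raised to its array's limit, and the fold is then "at least". No test was run, since each culture is 1 array and the M-CSF side is 1 array. The counting was checked on simulated data. Depth does not apply to arrays; their number limits the precision.

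Named were the markers and Ptdss1; in each direction the 15 genes above background in all 4 arrays and the 10 within background on the low side with the largest smallest difference or bound; up to 6 members of each list and members against its direction; the 6 widest ranges; the genes nearest the limit; and 8 genes in each direction whose differences changed most between days. Rab7, Mitf, Tfe3, Tfec, Spi1, Csf1r, Cd180, Adgre1, and the markers Blnk, Acta2, Cd4, Slc4a1 and Vwf, were named with their values known, as were other members given as not passing. The members and lists were chosen with earlier results of these data known. Alternatives were other scalings, filters, fold limits, clusters, each RANKL array left out, and the M-CSF array of day 6. Python 3.11.15, numpy 2.4.6, pandas 2.3.3 and matplotlib 3.10.9 were used. Promoters came from RefSeq, GRCm38.p6; genes without an entry were not analysed there.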

Additional observations from a re-analysis of the deposited data

Results flagged for a closer look

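Pltp had a mean log2 difference between the RANKL arrays and the M-CSF array of 6.16 on day 3 and of -4.01 on day 6. All 3 RANKL arrays lay above the M-CSF array on day 3 and below it on day 6. Fkbp5, a co-chaperone of steroid receptors, had -3.27 on day 3 and 1.13 on day 6. Pla2g7, a phospholipase of oxidised phospholipids, had 1.84 on day 3 and -2.49 on day 6. The differences between days were not tested, since each day has 1 M-CSF array. Among clusters without a gene symbol, which no comparison above used, 837 were measured on day 3; in all 3 RANKL arrays, 136 of them (16.2%) rose by 2-fold or more and 111 (13.3%) fell by that much.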

How the results depend on the processing

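A limit of 4-fold left 640 higher and 586 lower genes. Under every other alternative planned, the counts stayed within 1.5 times the reported 1499 and 1288. They were 1605 and 1192 with arrays shifted to the same median, 1434 and 1362 after quantile normalization, and 1237 and 1213 with background raised to its limit. With 1 RANKL array left out, the counts lay between 1590 and 1645 higher and between 1330 and 1400 lower genes. The share of higher genes among those called was 53.8% as reported, 57.4% with shifted medians and 51.3% after quantile normalization, and the median over all genes was 0.10, 0.18 and 0.04. Among the 70 genes and 46 lists examined, changes of sign under these alternatives were limited to Fcgrt and to the medians of iron handling, amino acid transporters and integrin subunits, all within 0.1 of 0, and to the Bcl2 family, whose median was -0.30 with background raised. Replacing the M-CSF array of day 3 by that of day 6, chosen after seeing the data, gave 1701 higher and 1398 lower genes, sharing 1026 and 772 with the reported ones. With that array, 56 of the 70 genes and 37 of the 46 lists moved by more than the spread among the RANKL arrays, and 11 genes and 7 lists moved by less. Among lists with a median past 2-fold and genes that had risen or fallen, it reversed 2 lists, monocyte and myeloid progenitor (median 1.48) and DNA replication (0.0901), and 3 genes, Pltp (-4.55), Ccl2 (0.82) and Fkbp5 (1.08). These alternatives share 1 M-CSF array a day, so none measures spread between cultures. No paired analysis was possible because each group has 1 array and the replicate numbers come from accession order. Signals near background limit what the array shows for genes such as Irf8, and signals near the ceiling for Acp5 and Ctsk.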

Other observations

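Factors by which osteoclasts speak to bone-forming cells changed in both directions on day 3. Of 11 measured coupling factors 5 rose and 3 fell, with a median of -0.14. Efnb2, an ephrin ligand, had 12.21, 11.57 and 11.28 in the RANKL arrays, against 5.97 in the M-CSF array, at least 42.0-fold higher. Sema4d, a semaphorin that restrains osteoblasts, had 14.83, 14.87 and 14.94 in the RANKL arrays and 10.38 in the M-CSF array, a 22.7-fold rise. Pdgfb, a growth factor, was at least 23.5-fold and Lif, a cytokine, at least 6.25-fold higher. Sphk1, the kinase that makes sphingosine 1-phosphate, passed 2-fold but was within background in the M-CSF array and gets no fold. Igf1, also in this list, fell 394-fold. Cxcl16, a membrane-bound chemokine, fell 4.95-fold, and Hgf, a growth factor, was at least 1.72-fold lower. Of 10 measured semaphorins, plexins and ephrins 6 rose and 1 fell, with a median of 3.06, or 1.88 with background signals raised to their limits. Plxnd1, a semaphorin receptor, rose 16.8-fold and Nrp2, a co-receptor, 9.25-fold, while Plxnc1, the receptor of Sema7a, fell 16.2-fold.

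Genes of prostaglandins and leukotrienes were mostly lower, with 7 fallen and 3 risen among 11 measured and a median of -2.20, or -1.75 with background signals raised to their limits. Alox5ap, the partner of 5-lipoxygenase, had 9.49, 9.62 and 10.03 in the RANKL arrays and 14.66 in the M-CSF array, a 30.9-fold fall. Hpgds, a prostaglandin D synthase, fell 15.6-fold. In the Notch pathway 3 of 7 measured genes fell and 1 rose, counts too small to set apart from the shares of all genes. The sheddases Adam17 and Adam10 fell 5.32-fold and 3.91-fold, and Dtx4, a ubiquitin ligase, rose 16.8-fold. Of 15 genes of calcium entry, release and calcineurin 3 rose, a share near that of all genes, and 1 fell. Nfatc2, a relative of Nfatc1, had 4.48, 4.83 and 4.81 in the RANKL arrays, all within background, and 7.34 in the M-CSF array, at least 2.63-fold lower.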
